A study of Mus musculus with 15 samples.

Results

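The proteasome subunits described here are the 34 genes Psma1 to Psma7, Psmb1 to Psmb7, Psmc1 to Psmc6 and Psmd1 to Psmd14, out of 18193 genes that the array reads through a probe set annotated to a single symbol. All 34 were measured, each by its brightest probe set on average over the 15 arrays. The arrays, Affymetrix Mouse Genome 430 2.0, read RNA of whole livers from adult males in 5 groups of 3 pools, each pool being 1 array. IUGR F1 pools (numbers 4 to 6) came from males whose caloric supply was restricted by 50% before birth, ON F1 pools (7 to 9) from males overfed while suckling, IUGR F2 pools (10 to 12) from sons of IUGR males, ON F2 pools (13 to 15) from sons of ON males, and control pools (1 to 3) from control males. The study asked whether expression patterns of the first generation recur in the sons of the challenged fathers. The control titles name both generations together, so no array is a control of 1 generation alone. The number 3 in each title is read here as livers per pool. Strain, age in weeks and the litters behind a pool are not given in the sources used here, so p-values measure only the spread between these pools. Levels are given on the log2 scale of RMA (robust multi-array average), and differences between groups as log2 differences ± the standard error of the limma fit.

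The proteasome is the protease that breaks down proteins marked with ubiquitin. Its core particle is a barrel of alpha and beta rings: the alpha rings gate the entrance, and 3 of the beta subunits carry the cutting sites inside. The cap, or regulatory particle, sits on the end of the barrel. Its base holds the ATPases that unfold substrates and the large subunits that bind ubiquitin and shuttle proteins, and its lid removes the ubiquitin chain. In liver, the ubiquitin-proteasome system turns over short-lived enzymes and regulators. When proteasome activity is impaired, the transcription factor NFE2L1 (NRF1) raises the subunit genes together, through antioxidant response elements in their promoters. The 34 genes divide into 14 core subunits (7 alpha, 7 beta), 17 cap subunits (6 base ATPases, 3 other base subunits, 8 lid subunits) and 3 genes with Psmd symbols, Psmd5, Psmd9 and Psmd10, whose products are chaperones that help to assemble the base and leave the finished particle.

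Because the subunit genes are known to be driven through shared promoter elements, the promoters were searched for the core of that element. RefSeq windows (GRCm38.p6, 250 bases before to 50 after the start of the gene) were held for 28 of the 34 genes. The motif TGANNNNGC, on either strand, was found in 16 of those 28 genes (57.1%), and in 45.05% of 27025 genes with a window. The stricter form TGACNNNGC, every match of which is also a match of the first, was found in 5 of 28 (17.9%) and in 13.99% of all. The 5 were Psmb5, Psmb6, Psmc6, Psmd9 and Psmd12. A match is a description of the letters and not a binding site. A window is shown for each of the 4 structural groups in which the stricter form was found (beta subunits, ATPases, lid subunits and base assembly chaperones), to place the element beside the start of the gene. The TGACNNNGC match, or its reverse complement, is in capitals.
Psmb6 (chr11:70525107-70525406, plus strand): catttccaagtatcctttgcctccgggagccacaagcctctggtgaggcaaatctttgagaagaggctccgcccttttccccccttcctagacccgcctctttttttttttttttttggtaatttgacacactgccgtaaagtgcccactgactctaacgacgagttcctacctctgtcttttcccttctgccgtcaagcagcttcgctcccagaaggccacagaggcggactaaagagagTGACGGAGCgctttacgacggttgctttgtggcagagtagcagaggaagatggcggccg
Psmc6 (chr14:45329574-45329873, plus strand): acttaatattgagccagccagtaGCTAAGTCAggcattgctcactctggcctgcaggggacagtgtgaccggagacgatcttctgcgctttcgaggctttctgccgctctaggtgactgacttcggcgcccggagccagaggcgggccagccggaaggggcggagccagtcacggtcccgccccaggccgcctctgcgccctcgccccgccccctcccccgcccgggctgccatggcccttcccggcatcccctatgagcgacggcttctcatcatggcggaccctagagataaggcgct
Psmd12 (chr11:107479278-107479577, plus strand): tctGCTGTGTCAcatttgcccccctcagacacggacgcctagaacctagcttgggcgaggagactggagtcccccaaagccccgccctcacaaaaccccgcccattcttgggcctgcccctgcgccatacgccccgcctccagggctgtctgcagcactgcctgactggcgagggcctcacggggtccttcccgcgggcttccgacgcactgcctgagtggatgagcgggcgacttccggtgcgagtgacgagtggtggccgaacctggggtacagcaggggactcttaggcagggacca
Psmd9 (chr5:123227940-123228239, plus strand): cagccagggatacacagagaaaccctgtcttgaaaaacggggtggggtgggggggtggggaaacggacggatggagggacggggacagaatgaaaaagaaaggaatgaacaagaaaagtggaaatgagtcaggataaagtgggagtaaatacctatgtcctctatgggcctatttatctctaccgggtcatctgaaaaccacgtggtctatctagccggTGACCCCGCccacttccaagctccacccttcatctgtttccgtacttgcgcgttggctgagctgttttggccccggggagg
In Psmb6 the match began at position -9 and in Psmd9 at position -31, while in Psmc6 and Psmd12 it lay at the far end of the window, at positions -227 and -247 counted from the start at +1.

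No subunit passed the test in any comparison. At an adjusted p of 0.05 in limma, with adjustment over all 18193 genes, 0 of 34 subunits were called in each of the 9 comparisons between groups and in the F test over the 5 groups. Over all genes the called share was 0% for IUGR F1, 0.022% for ON F1, 0% for IUGR F2 and 0% for ON F2 against control, 0.011% for IUGR F2 against IUGR F1, 1.43% for ON F2 against ON F1, 0.011% for IUGR F1 against ON F1, 0.0055% for IUGR F2 against ON F2 and 0.011% for the lineage by generation interaction. The data are therefore described by level and by how many subunits lay above or below the control mean. In the F test 5 subunits had an unadjusted p under 0.05 (Psmb2, Psma5, Psmb7, Psmd5 and Psmd8), where 18% of all genes did and 0.187% of all genes passed after adjustment. The members' probe sets averaged between 7.07 (Psmd10) and 11.12 (Psma3), and none was dim. These are signals of different probes, so they do not order the transcripts. Over the 15 arrays the SD lay between 0.07 and 0.14 for 32 subunits, and was 0.21 for Psmd7 and 0.30 for Psmb7.

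**Figure D1:**
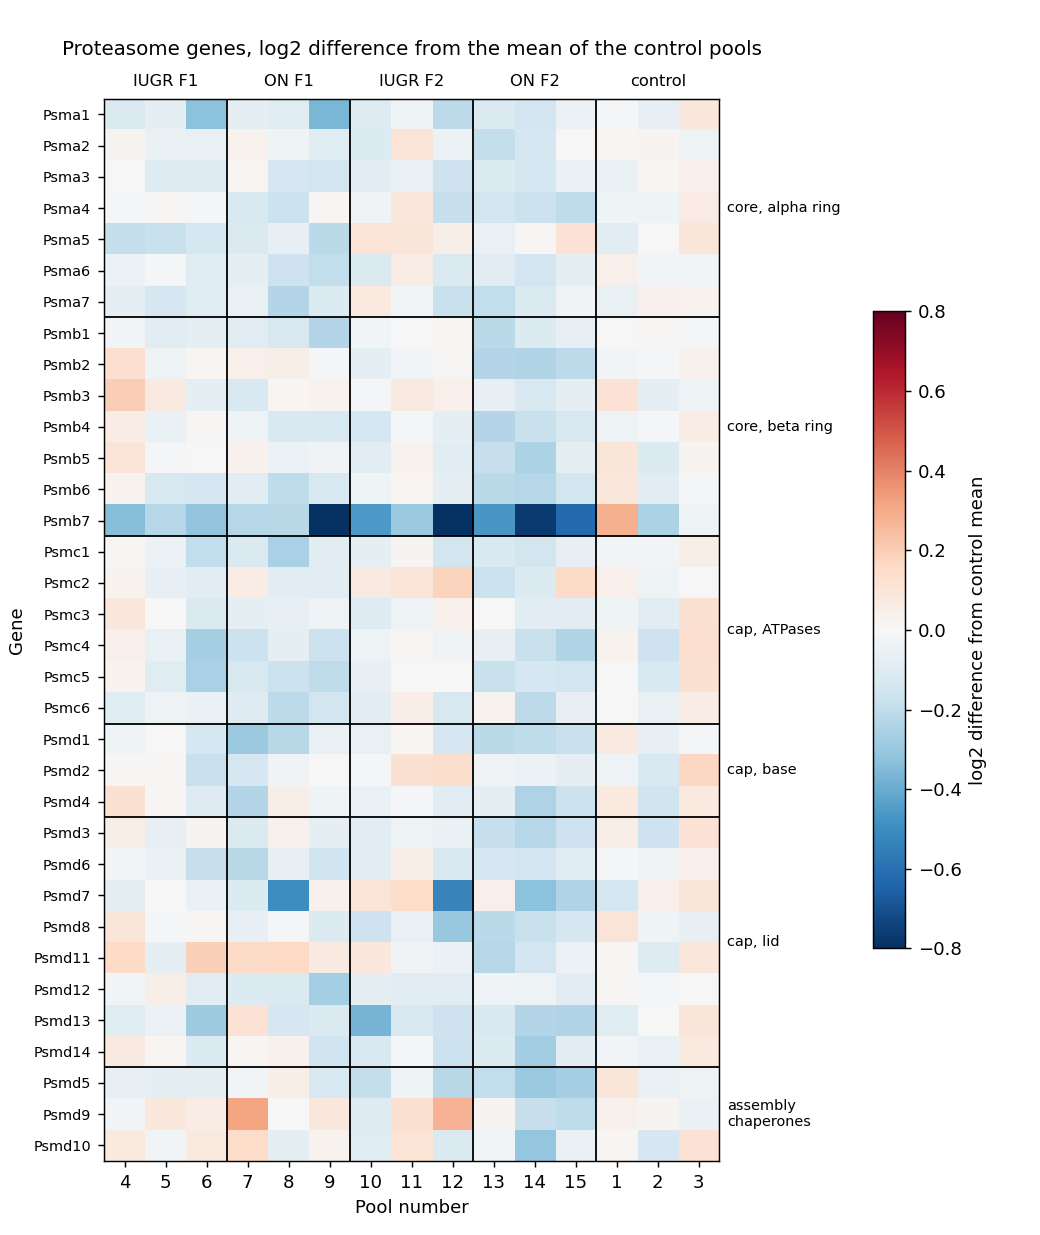
Difference of each subunit from its control mean (log2, colour scale from -0.8 to 0.8) in each of the 15 pools. Rows are the 34 genes in their structural groups, and columns are the pools in the order IUGR F1, ON F1, IUGR F2, ON F2 and control. Blue, below the control mean, is most frequent in the ON F2 columns, where 30, 33 and 31 of 34 subunits lay below it.

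The beta subunits that cut substrates were lower on average in ON F2 than in control pools, short of the threshold in each case. Psmb5, which cuts after hydrophobic residues, stood at 10.12, 10.05 and 10.23 in ON F2 pools and at 10.40, 10.19 and 10.33 in control pools. In IUGR F1 pools it stood at 10.41, 10.29 and 10.31, in ON F1 pools at 10.34, 10.26 and 10.28 and in IUGR F2 pools at 10.22, 10.34 and 10.22. ON F2 pools and control pools overlapped, and the difference was -0.17 ± 0.08 (adjusted p = 0.32). Psmb6, which cuts after acidic residues, stood at 10.29, 10.28 and 10.36 in ON F2 pools, all below the 10.60, 10.43 and 10.50 of control pools. Its other pools read 10.53, 10.38 and 10.38 in IUGR F1, 10.42, 10.31 and 10.38 in ON F1, and 10.47, 10.52 and 10.43 in IUGR F2. The ON F2 difference was -0.20 ± 0.07 (adjusted p = 0.234).

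Psmb7, the subunit that cuts after basic residues, had the widest spread, with 8.09 in its lowest and 9.16 in its highest pool. It stood at 8.54, 8.65 and 8.57 in IUGR F1 pools, at 8.66, 8.66 and 8.09 in ON F1 pools, at 8.42, 8.58 and 8.09 in IUGR F2 pools and at 8.41, 8.11 and 8.26 in ON F2 pools, against 9.16, 8.63 and 8.85 in control pools. The F2 groups did not overlap with control, while the F1 groups did, through control pool 2. The differences from control were -0.29 ± 0.17 in IUGR F1 pools (adjusted p = 0.658), -0.41 ± 0.17 in ON F1 pools (0.296), -0.52 ± 0.17 in IUGR F2 pools (0.647) and -0.62 ± 0.17 in ON F2 pools (0.134). All 4 comparisons use the same 3 control pools. Control pool 1 held the highest value of all 15, and only 1 probe set reads the gene. The IUGR F1 difference was -0.15 without control pool 1, and the ON F1 difference was -0.22 without ON F1 pool 9.

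The other core subunit with the smallest p was Psmb2, a beta subunit without a cutting site. Its ON F2 pools lay close together at 9.06, 9.06 and 9.08, below every other pool of the series. IUGR F1 pools had 9.43, 9.25 and 9.31, ON F1 pools 9.33, 9.34 and 9.29, IUGR F2 pools 9.22, 9.27 and 9.30 and control pools 9.27, 9.28 and 9.33. ON F2 differed by -0.23 ± 0.07 from control (adjusted p = 0.158) and by -0.25 ± 0.07 from ON F1 (adjusted p = 0.0684). The second comparison passed in 2 of the 11 other settings that keep all pools, at an adjusted p of 0.0489 with a gene read as the mean of its probe sets and 0.0424 with dim genes left out, and in none that left out a pool. Psmb3, another beta subunit without a cutting site, stood at 11.16, 11.03 and 10.88 in IUGR F1 pools and at 11.08, 10.88 and 10.92 in control pools, which overlap (0.06 ± 0.08, adjusted p = 0.876).

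**Figure D2:**
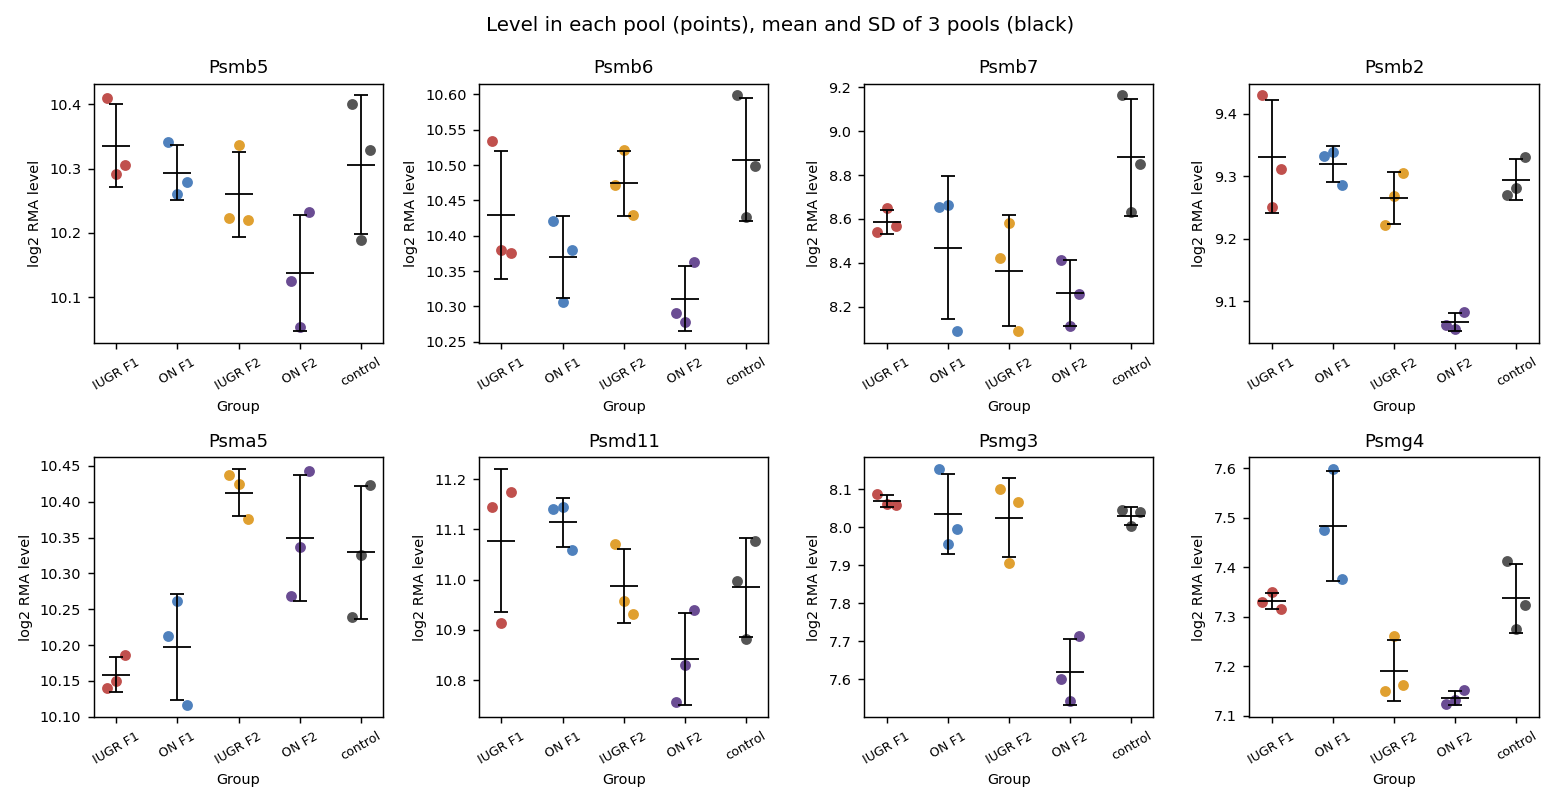
Log2 RMA level of 6 subunits (Psmb5, Psmb6, Psmb7, Psmb2, Psma5, Psmd11) and of the core assembly chaperones Psmg3 and Psmg4 in each pool. Points are pools, the black bar is the mean and the error bar the SD of 3 pools, with groups in the order IUGR F1, ON F1, IUGR F2, ON F2 and control. The ON F2 points of Psmb2 lie at 9.06 to 9.08, and those of Psmg3 at 7.54 to 7.71, below the points of every other group.

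Of the alpha subunits, which form the outer rings of the core, Psma5 had the largest F. It stood at 10.44, 10.43 and 10.38 in IUGR F2 pools and at 10.14, 10.15 and 10.19 in IUGR F1 pools, and these groups did not overlap (0.25 ± 0.07 for IUGR F2 over IUGR F1, adjusted p = 0.258). ON F1 pools had 10.21, 10.26 and 10.12, ON F2 pools 10.27, 10.34 and 10.44 and control pools 10.24, 10.33 and 10.42. IUGR F1 differed from control by -0.17 ± 0.07 (adjusted p = 0.548). A second bright probe set of Psma5 did not follow the first (r = -0.23 over the 15 arrays), and differed by 0.01 in IUGR F1 from control and by -0.04 in IUGR F2 from IUGR F1. Psma5 also had the lowest median correlation with the other members (-0.03).

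The other 6 alpha subunits lay below control on average in both F1 groups. Psma1 stood at 10.01, 10.06 and 9.80 in IUGR F1 pools and at 10.11, 10.06 and 10.22 in control pools, a difference of -0.17 ± 0.09 (adjusted p = 0.643). In ON F1 pools it stood at 10.05, 10.04 and 9.76, in IUGR F2 pools at 10.02, 10.09 and 9.92 and in ON F2 pools at 10.02, 9.98 and 10.08. All 3 IUGR F1 pools lay below the lowest control pool. Psma3 lay within 0.21 log2 over the whole series, the narrowest range of any member: IUGR F1 pools had 11.20, 11.09 and 11.09, ON F1 pools 11.21, 11.06 and 11.05, IUGR F2 pools 11.11, 11.14 and 11.03, ON F2 pools 11.09, 11.05 and 11.14, and control pools 11.14, 11.21 and 11.24.

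Among the 6 ATPases of the base, which form the ring that unfolds substrates, no member had an unadjusted p under 0.05 against control in any of the 4 groups. Psmc2 stood at 10.87, 10.90 and 10.98 in IUGR F2 pools, all above the 10.84, 10.76 and 10.80 of control pools (0.12 ± 0.09, adjusted p = 0.828). At the 2 other probe sets, with mean levels of 9.84 and 3.73, the difference was -0.02 and -0.03. It was the single subunit with IUGR F2 pools wholly above control. Its other pools had 10.83, 10.73 and 10.71 in IUGR F1, 10.86, 10.71 and 10.71 in ON F1 and 10.63, 10.69 and 10.95 in ON F2. Psmc3 had the smallest F of all subunits together with the lid subunit Psmd7. Its IUGR F1 pools had 9.89, 9.80 and 9.69, ON F1 pools 9.72, 9.74 and 9.76, IUGR F2 pools 9.70, 9.76 and 9.84, ON F2 pools 9.81, 9.71 and 9.72, and control pools 9.77, 9.71 and 9.92. The groups of Psmc3 overlap throughout. Of the 3 other base subunits, the scaffold Psmd1 lay lower in ON F2 and ON F1 pools (-0.20 ± 0.08 and -0.19 ± 0.08 against control, adjusted p = 0.259 and 0.298), the scaffold Psmd2 differed by -0.05 ± 0.09 in ON F2, and the ubiquitin receptor Psmd4 by -0.17 ± 0.09.

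The lid includes Psmd14, the enzyme that removes ubiquitin chains, which differed by -0.16 ± 0.08 in ON F2 from control (adjusted p = 0.376). Psmd12, a lid scaffold, stood at 9.72, 9.71 and 9.56 in ON F1 pools, below the 9.84, 9.82 and 9.83 of control pools (-0.17 ± 0.07, adjusted p = 0.296). In the other groups it stood at 9.81, 9.88 and 9.75 in IUGR F1, at 9.76, 9.75 and 9.74 in IUGR F2, and at 9.80, 9.79 and 9.74 in ON F2. Psmd13, another lid scaffold, stood at 7.83, 8.08 and 8.04 in IUGR F2 pools, below the 8.10, 8.20 and 8.30 of control pools (-0.22 ± 0.10, adjusted p = 0.689). At the 3 other probe sets, with mean levels of 7.17, 4.69 and 5.58, the difference was -0.06, -0.09 and 0.12. Its IUGR F1 pools had 8.10, 8.15 and 7.91, its ON F1 pools 8.31, 8.06 and 8.08 and its ON F2 pools 8.08, 7.96 and 7.96. Both scaffolds were among the genes that a group held wholly below control.

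Psmd11, the lid subunit that braces the cap against the core, stood at 11.14, 11.14 and 11.06 in ON F1 pools and at 11.00, 10.88 and 11.08 in control pools, which overlap (0.13 ± 0.09, adjusted p = 0.528). IUGR F1 pools had 11.14, 10.91 and 11.17, IUGR F2 pools 11.07, 10.96 and 10.93 and ON F2 pools 10.76, 10.83 and 10.94. ON F2 lay wholly below ON F1, by -0.27 ± 0.09 (adjusted p = 0.111). Psmd11 had other bright probe sets, with mean levels of 10.42, 9.31 and 8.37. At these, ON F1 differed from control by 0.18, -0.09 and 0.11, and ON F2 from ON F1 by -0.30, -0.24 and -0.13. Psmd7, the inactive partner of Psmd14, was the second most variable member and differed by -0.18 ± 0.17 in ON F2 (adjusted p = 0.65). IUGR F1 pools had 7.49, 7.56 and 7.51, ON F1 pools 7.45, 7.06 and 7.60, IUGR F2 pools 7.66, 7.71 and 7.03, ON F2 pools 7.60, 7.23 and 7.32, and control pools 7.42, 7.60 and 7.66. The pools of 1 group spread as widely as the groups.

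Of the 3 base assembly chaperones, 2 had a positive difference in ON F1, as did 1 of 14 core and 1 of 17 cap subunits. Psmd9 stood at 7.64, 7.33 and 7.41 in ON F1 pools and at 7.36, 7.35 and 7.27 in control pools (0.13 ± 0.10, adjusted p = 0.595; -0.07 as the mean of its probe sets), and Psmd10 at 7.23, 7.01 and 7.12 against 7.11, 6.95 and 7.21. Psmd9 had 7.35, 7.14 and 7.12 in ON F2 pools, 7.31, 7.41 and 7.39 in IUGR F1 and 7.23, 7.45 and 7.61 in IUGR F2 pools. Psmd10 had 7.17, 7.07 and 7.17 in IUGR F1, 7.00, 7.20 and 6.98 in IUGR F2, and 7.07, 6.78 and 7.03 in ON F2 pools. Psmd5 lay wholly lower in ON F2 pools (8.14, 8.04 and 8.07) than in control pools (8.43, 8.28 and 8.29), by -0.25 ± 0.08 (adjusted p = 0.161).

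Core and cap were then summarised per pool, as the median difference of their genes from the control mean. The core median was -0.01, -0.06 and -0.09 in IUGR F1 pools 4, 5 and 6, -0.07, -0.12 and -0.12 in ON F1 pools 7, 8 and 9, -0.08, 0.01 and -0.08 in IUGR F2 pools 10, 11 and 12, and -0.19, -0.15 and -0.08 in ON F2 pools 13, 14 and 15, against -0.01, -0.02 and 0.03 in control pools 1, 2 and 3. In the same pools the cap median was 0.03, -0.04 and -0.11 (IUGR F1), -0.11, -0.07 and -0.09 (ON F1), -0.07, -0.003 and -0.09 (IUGR F2), and -0.12, -0.18 and -0.09 (ON F2), against 0.00, -0.06 and 0.08 in control pools. Each ON F1 and ON F2 pool lay below each control pool in both medians, while the IUGR groups overlapped control. That separation did not hold when each array was centred on the genes with a mean of at least 7, where the cap median of ON F1 pool 8 was 0.0077 and the core median of ON F2 pool 15 was 0.00031. Core and cap differed by at most 0.07 in any pool (core minus cap from -0.07 to 0.04), and neither stood lower than the other in all pools of a group. The core median averaged -0.05 ± 0.04 (IUGR F1), -0.11 ± 0.03 (ON F1), -0.05 ± 0.05 (IUGR F2) and -0.14 ± 0.06 (ON F2), against -0.001 ± 0.02 in control pools (SD, n = 3 each). The cap median averaged -0.04 ± 0.07, -0.09 ± 0.02, -0.05 ± 0.05 and -0.13 ± 0.04 in the same order, against 0.01 ± 0.07. These summaries have no test, because the members were chosen with results known.

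**Figure D3:**
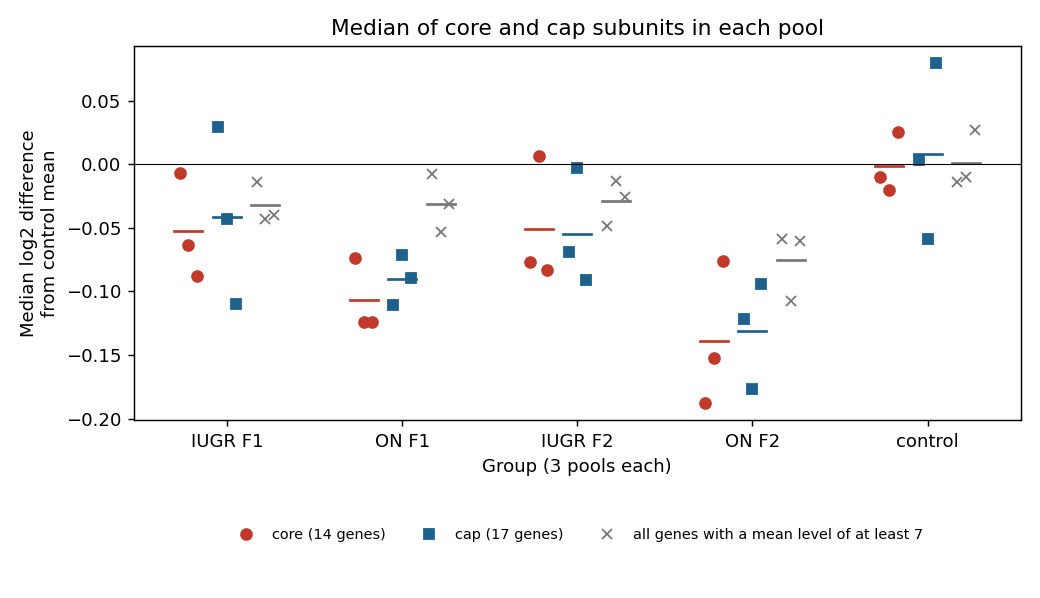
Median log2 difference from the control mean over the 14 core and the 17 cap subunits in each pool, with groups in the order IUGR F1, ON F1, IUGR F2, ON F2 and control. The ON F1 and ON F2 pools lie between -0.07 and -0.19 in both medians, and pool 11 of IUGR F2 lies at 0.01 for the core and -0.003 for the cap.

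Against control, more members lay below than above the control mean in each group. Genes with a mean of at least 7 leaned the same way. After arrays were centred on those genes, the majority below control was no longer present in IUGR F1 and IUGR F2. Most subunits had a mean of at least 9. Of the 2063 genes at that level, 62.1% (IUGR F1), 60.6% (ON F1), 60.6% (IUGR F2) and 64.4% (ON F2) were lower than control. Over all genes these shares were 47.7%, 45%, 53.4% and 50.7% in the same order. In ON F2, 33 of 34 subunits had a difference below 0, against 50.7% of all genes and 70.2% of the 5730 genes with a mean of at least 7, a level that every member reached. Their median difference was -0.14, and that of the genes with a mean of at least 7 was -0.08. In ON F2, pool medians averaged -0.05 for genes with a mean of at least 9 and -0.12 for the subunits that bright. The pools of 16 subunits did not overlap with control, all lower (12.1% of all genes, 23.6% of those with a mean of at least 7). An unadjusted p under 0.05 was reached by 10, all lower (9.26% and 17.8%). These 10 included 5 of 7 beta subunits (Psmb2, Psmb4, Psmb5, Psmb6 and Psmb7), the alpha subunit Psma4, the cap subunits Psmd1, Psmd3 and Psmd8, and the chaperone Psmd5. A second bright probe set of Psmb4 (mean level 8.48) did not follow the chosen one (r = -0.05). Its ON F2 difference from control was 0.02, against -0.18 at the chosen set. The count of 10 became 2 when each array was centred on the genes with a mean of at least 7, 5 with repeated quantile normalisation or the 3' minus 5' actin signal as a covariate, and 6 with the clock gene Dbp as a covariate. It was 6 without control pool 1 or 3, 5 without pool 13 and 4 without pool 14. The cap median of -0.16 was -0.10 without control pool 3. In whole liver, fewer cells of a type and less RNA per cell cannot be told apart.

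In ON F1, 30 of 34 subunits lay below control, against 45% of all genes and 60.5% of the genes with a mean of at least 7. The median difference was -0.09, beside -0.03 for those genes. The pools of 9 subunits lay wholly below control (6.23% of all genes, 11.1% of those with a mean of at least 7), and 4 had an unadjusted p under 0.05 (Psmb1, Psmb7, Psmd1 and Psmd12, all lower), against 5.03% and 9.02%. That count of 4 was 1 without control pool 1 and 2 without pool 9. It was 0 with the actin covariate or with only the compared groups in the fit, 1 after centring or repeated quantile normalisation, 8 with probe sets averaged per gene and 9 with the Dbp covariate. The cap median of -0.07 was -0.15 without control pool 2. In IUGR F2, 28 of 34 lay below control (60.2% of the genes with a mean of at least 7, 53.4% of all), with a median of -0.05. Centring on the genes with a mean of at least 7 gave 17 of 34 there and a core median of 0.0078. In IUGR F2, 4 subunits lay wholly below (8.12% of all genes, 12.6% of those with a mean of at least 7) and 1 wholly above (5.29% and 4.8%). An unadjusted p under 0.05 was reached by 3 (Psmb7, Psmd8 and Psmd13, all lower; 4.55% and 6.54%), a count that was 1 without control pool 2 or pool 10, after centring, after repeated quantile normalisation, with the actin covariate or with only the compared groups. In IUGR F1, 24 of 34 lay below control (62.8% and 47.7%), with a median of -0.05. All 7 alpha subunits and all 6 ATPases were below control there, but 3 of 7 beta subunits were. Centring on the genes with a mean of at least 7 gave 16 of 34 subunits below control in IUGR F1 and a cap median of 0.0079. The pools of 5 subunits lay wholly below (5.89% of all genes, 9.6% of those with a mean of at least 7) and 1, Psma5, had an unadjusted p under 0.05 (lower in 2.97% and 4.1%). That count was 0 without control pool 3 and pools 4 or 5, each left out in turn, after centring or repeated quantile normalisation and with probe sets without a suffix, and 2 with probe sets averaged. The smallest adjusted p of a subunit was 0.548, 0.296, 0.647 and 0.134 for IUGR F1, ON F1, IUGR F2 and ON F2. These 4 comparisons share the control pools, so agreement between them is not read as recurrence across generations.

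**Figure D4:**
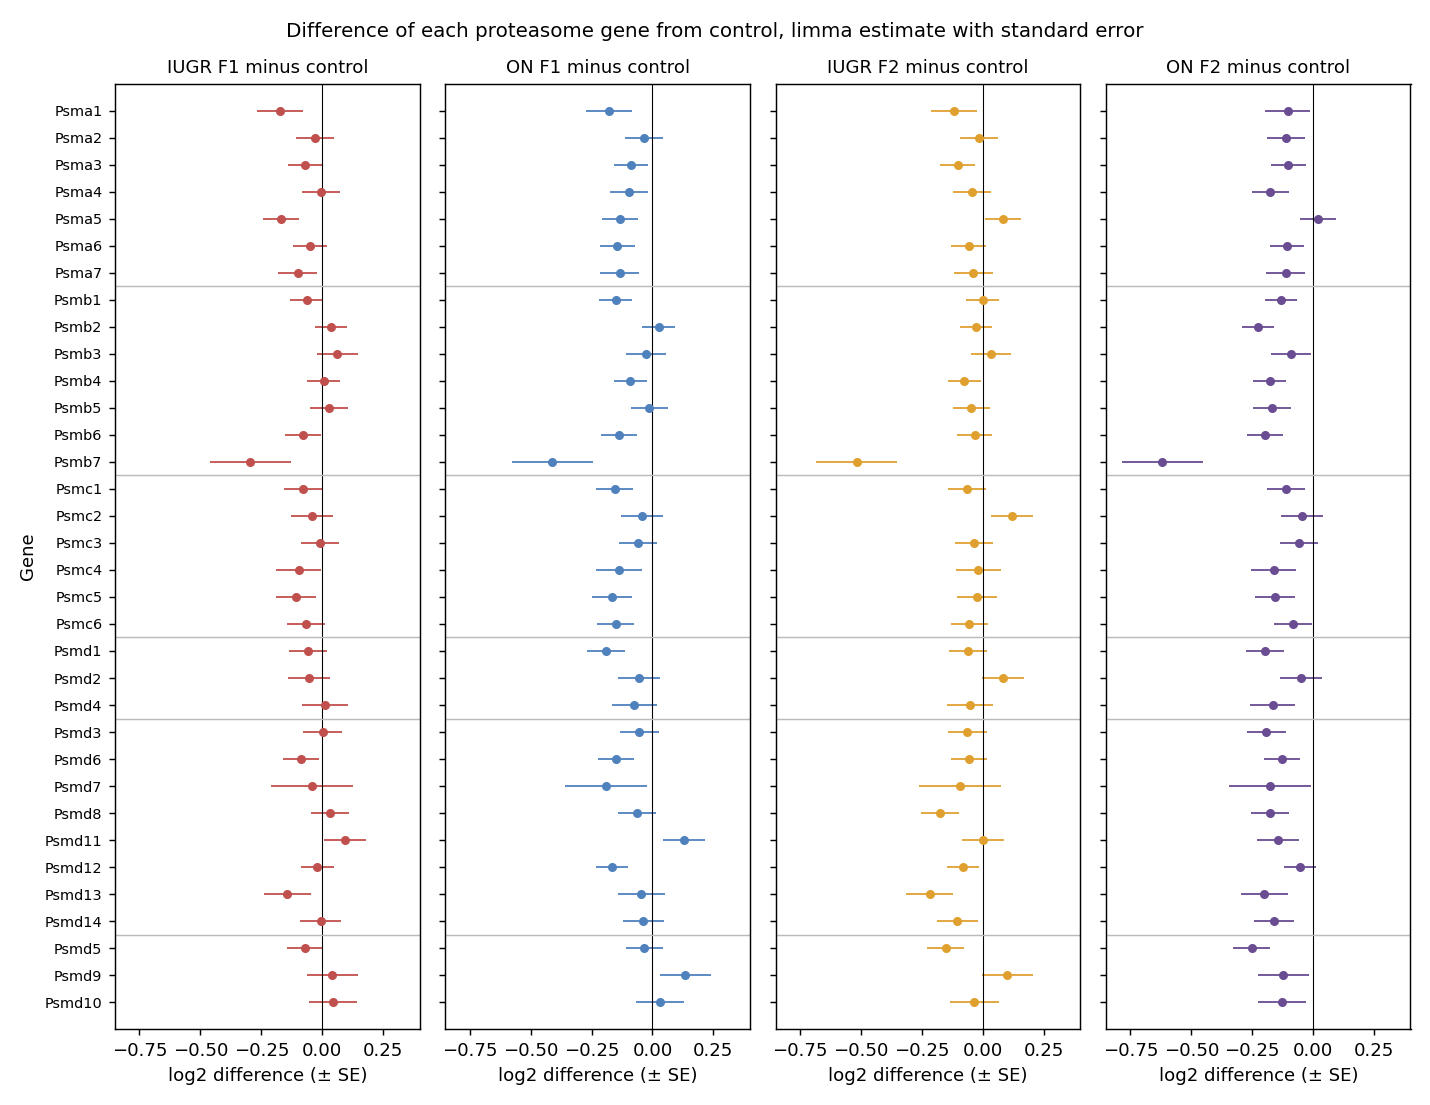
Log2 difference from control of each subunit in each of the 4 groups, with the standard error from limma as bars, in the order IUGR F1, ON F1, IUGR F2 and ON F2. In ON F2, 33 of 34 points lie left of 0, and Psmb7 lies farthest left in each of the 4 groups.

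The other 4 comparisons, and the interaction, use no control pools. ON F2 lay below ON F1 for 21 of 34 subunits (56.6% of all genes and 60.5% of those with a mean of at least 7 were lower), with a median of -0.04. The pools of 7 lay wholly lower (14% of all genes, 18.6% of the brighter ones) and of 2 wholly higher (7.41% and 8.31%). An unadjusted p under 0.05 was reached by 4 (Psmb2, Psmd5, Psmd9 and Psmd11, all lower), against 12.7% and 16.9%, and an adjusted p by 1.43% of all genes and by no subunit. IUGR F2 lay below IUGR F1 for 20 of 34 (58.1% of all genes and 50.3% of the brighter ones), with a median of -0.03. Psmd8, a lid subunit, differed by -0.21 ± 0.08 there (adjusted p = 0.355). IUGR F2 lay above ON F2 for 30 of 34 and below it for 4 (53.3% of all genes and 36% of the brighter ones were lower), with a median of 0.10. The pools of 9 lay wholly higher (8.79% and 15.5%) and of none wholly lower. IUGR F1 lay above ON F1 for 28 of 34 and below it for 6 (52.3% and 50% were lower), with a median of 0.05. The lineage by generation interaction gave 24 of 34 subunits a positive value and 10 a negative one (50% of all genes and 38.6% of the brighter ones were negative), with a median of 0.04, and Psmd9 the smallest p (0.31 ± 0.15, adjusted p = 0.645).

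Correlations between subunits over the 15 arrays were described without a background of other genes. Of 561 pairs, 505 correlated positively, with a median r of 0.38. Pairs within the core had a median of 0.47, pairs within the cap 0.35 and pairs across them 0.38. After the group means were taken out, 443 pairs were positive with a median of 0.27. Subunits thus also tended to deviate together, pool by pool, from their group means. All pairs share the arrays and their normalisation, and no test was made. Pool medians of the genes with a mean of at least 7 themselves ran from -0.11 (pool 14) to 0.03 (control pool 3). The share of positive pairs was not computed for such genes, so these values are not read as particular to the subunits. Psmb6 followed the others most closely, with a median r of 0.56, while Psma5 and Psmd9 (0.09) did not. Second probe sets of the same genes gave a partial check. Of 38 such sets 14 were as bright as 7, and 9, 12, 8 and 10 of these 14 had the sign of the chosen set for IUGR F1, ON F1, IUGR F2 and ON F2 against control, with a median r of 0.47.

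The core assembly chaperones held the only calls in the proteasome lists. Psmg3 and Psmg4 form a pair that helps to build the alpha ring. Psmg3 stood at 7.60, 7.54 and 7.71 in ON F2 pools and at 8.15, 7.96 and 8.00 in ON F1 pools, and fell by 0.42 ± 0.08 (adjusted p = 0.024). Psmg4 stood at 7.12, 7.13 and 7.15 in ON F2 pools and at 7.48, 7.60 and 7.38 in ON F1 pools, and fell by 0.35 ± 0.07 (adjusted p = 0.0345). In both genes ON F2 lay wholly below ON F1. Control pools stood at 8.05, 8.00 and 8.04 for Psmg3 and 7.41, 7.28 and 7.32 for Psmg4, so ON F2 differed from control by -0.41 ± 0.08 (adjusted p = 0.0819) and -0.20 ± 0.07 (0.219). The 3 other measured members of this list, Psmg1, Psmg2 and Pomp, differed by -0.17 ± 0.08, -0.05 ± 0.09 and -0.13 ± 0.08 between ON F2 and ON F1. The calls of Psmg3 and Psmg4 were lost when a gene was read as the mean of its probe sets (-0.20 and -0.25, adjusted p = 0.262 and 0.126), with Dbp as a covariate (-0.36 and -0.31, adjusted p = 0.221 and 0.273), with only the compared groups in the fit (-0.42 and -0.35, adjusted p = 0.167 and 0.19), and without pool 7, 13 or 14. That of Psmg4 was also lost without pool 8 or 15, with array weights and after centring on genes with a mean of at least 7 or repeated quantile normalisation. Dbp stood at 9.84, 10.71 and 6.54 in ON F2 pools and at 5.40, 5.34 and 6.23 in ON F1 pools, and its part in the result was not tested beyond that covariate.

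The immunoproteasome subunits replace the 3 cutting subunits of the core and are known to be induced by interferon. Psmb8 stood at 8.56, 9.16 and 8.61 in ON F1 pools and at 8.38, 8.40 and 8.79 in control pools, and Psmb9 at 8.64, 9.30 and 9.02 against 8.29, 8.29 and 8.71. Psmb10 stood at 8.38, 8.97 and 8.72 in ON F1 pools and at 8.45, 8.54 and 8.78 in control pools. The highest value of each of the 3 genes over the series was in ON F1 pool 8. Psmb9 differed by 0.56 ± 0.20 in ON F1 from control (adjusted p = 0.251) and by -0.75 ± 0.20 in ON F2 from ON F1 (adjusted p = 0.0704). Psmb8 differed by -0.52 ± 0.16 in ON F2 from ON F1 (adjusted p = 0.111). Their ON F2 pools had 8.54, 8.10 and 8.14 for Psmb8, 8.63, 7.96 and 8.13 for Psmb9, and 8.66, 8.41 and 8.36 for Psmb10. Psme1, a subunit of the activator induced with them, differed by -0.06 ± 0.10 in ON F1 from control. The interferon response list, of which 22 of 25 genes were measured, had a median of 0.02, 1.25 and -0.07 in ON F1 pools 7, 8 and 9 and of -0.17, -0.08 and 0.23 in control pools. The part of pool 8 in these values was not tested beyond leaving it out, when the Psmb9 difference was 0.40 for ON F1 over control and -0.59 for ON F2 over ON F1. Without it the Psmb8 difference was 0.06 for ON F1 over control and -0.33 for ON F2 over ON F1, and the Psmb10 difference for ON F1 over control was -0.04.

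**Figure D5:**
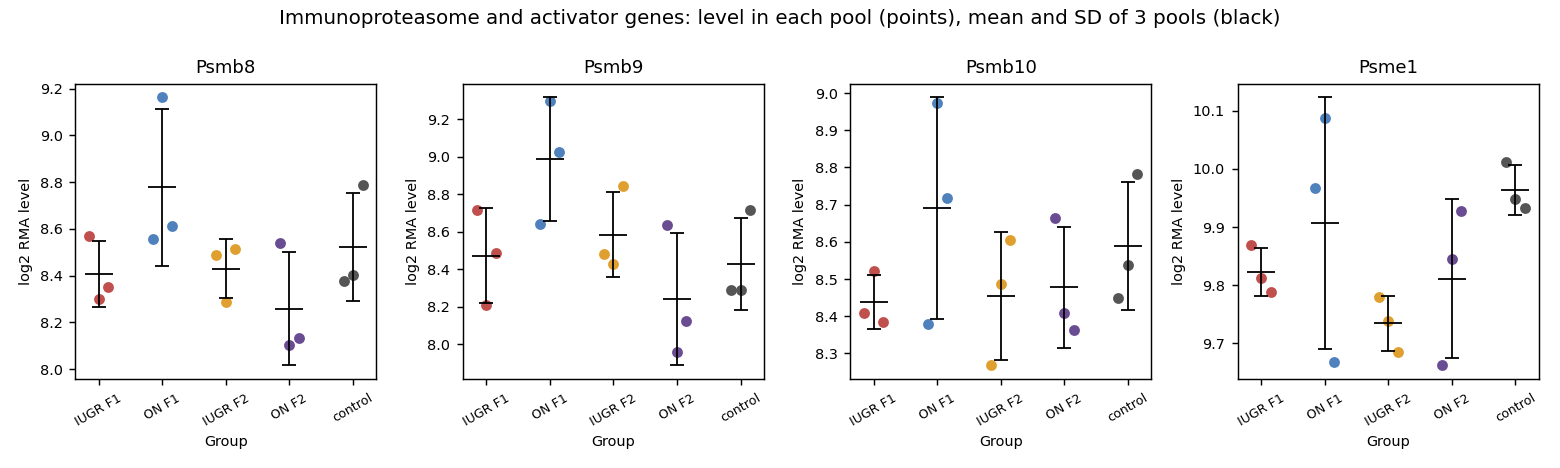
Log2 RMA level of the immunoproteasome subunits Psmb8, Psmb9 and Psmb10 and of the activator subunit Psme1 in each pool, with groups in the order IUGR F1, ON F1, IUGR F2, ON F2 and control (points: pools, black bar: mean, error bar: SD of 3 pools). Pool 8 of ON F1 holds the highest point of each of the 3 subunits, at 9.16, 9.30 and 8.97.

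Genes that act around the proteasome gave no call against control in any group. Usp14, a deubiquitinase bound to the cap, was the member of its list with the smallest p in each group. It stood at 7.75, 7.82 and 7.94 in ON F2 pools, above the 7.39, 7.51 and 7.22 of control pools (0.46 ± 0.11, adjusted p = 0.128). It differed by 0.20 ± 0.11 in IUGR F1, 0.30 ± 0.11 in ON F1 and 0.30 ± 0.11 in IUGR F2. Of the activators, Psme3 differed by -0.35 ± 0.09 in ON F2 (adjusted p = 0.134) and Psme4 by -0.14 ± 0.08 in ON F1, and the inhibitor Psmf1 by -0.10 ± 0.08 in IUGR F1 and -0.13 ± 0.08 in IUGR F2. Of the shuttles and partners of the p97 ATPase, which carries substrates to the cap, Ubqln4 differed by -0.26 ± 0.08 in ON F2, Nploc4 by -0.26 ± 0.08 in ON F1, Ufd1 by -0.18 ± 0.09 in IUGR F1 and Rad23b by -0.17 ± 0.08 in IUGR F2. The ubiquitin-activating enzyme Uba6 differed by -0.32 ± 0.13 in IUGR F1.

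Of the 7 factors known to act on subunit genes, none was called. Nfe2l1 stood at 8.25, 8.08 and 8.21 in ON F2 pools and at 8.30, 8.48 and 8.54 in control pools, so these did not overlap (-0.26 ± 0.08, adjusted p = 0.187). Nfe2l2, the antioxidant regulator, differed by -0.41 ± 0.15 in IUGR F2 (adjusted p = 0.679), -0.26 ± 0.15 in IUGR F1 and -0.34 ± 0.15 in ON F2 from control. Mafg, a small partner of both, differed by -0.36 ± 0.20 in ON F1. NFE2L1 and NFE2L2 are regulated largely after transcription, which these arrays do not read.

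Some features of the arrays differed between single pools or between group averages. Exocrine pancreas markers stood 4.59 above the control mean in ON F2 pool 13, as a median over 8 of 10 listed genes. They stood at 0.14 and 0.17 in pools 14 and 15. Skeletal muscle markers stood at 0.80 in IUGR F1 pool 5, and at 0.09 and -0.05 in pools 4 and 6. Hepatocyte markers lay between -0.05 and 0.05 in all pools. Kupffer cell markers (10 of 10 genes measured) averaged -0.50 (IUGR F1), -0.14 (ON F1), -0.25 (IUGR F2) and 0.22 (ON F2), against -0.02 in control pools. Their pools ran from -0.56 to -0.41 (IUGR F1), -0.28 to -0.03 (ON F1), -0.55 to 0.14 (IUGR F2) and 0.04 to 0.48 (ON F2). Control pools ran from -0.25 to 0.34, so all groups but IUGR F1 overlapped control. In IUGR F2 pools the stellate cell list averaged -0.29 (8 of 8 genes below control), the lymphocyte list -0.20 (6 of 9) and the sinusoidal endothelium list -0.17 (7 of 8), against -0.02, 0.01 and -0.03 in control pools. The stellate medians lay wholly below those of control pools, while the lymphocyte and sinusoidal endothelium medians overlapped them. The interferon response list averaged -0.29 in IUGR F1 and -0.20 in ON F2 pools, against -0.005 in control pools. The 3' minus 5' actin signal, a sign of RNA length, averaged 1.88 (IUGR F1), 2.08 (ON F1), 2.02 (IUGR F2) and 2.03 (ON F2), against 1.87 in control pools. The same signal of Gapdh averaged 1.14, 1.30, 1.28 and 1.16 in that order, against 1.15, so ON F2 stood near control there. The actin signal of ON F2 pools (1.95, 2.06 and 2.10) lay wholly above that of control pools (1.94, 1.91 and 1.76). The other groups overlapped control in the actin signal. Without pool 13, ON F2 had a core median of -0.11 and a cap median of -0.15 against control. The part of the other features in the subunits' values was not tested beyond the covariates for actin and Dbp.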

How the data were processed

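The authors deposited log2 expression values per probe set, which RMA produced, per the submitters' processing notes (version not given). That the scale is log2 was judged from the range of the values, with array medians of 4.60 to 4.68. RMA normalises arrays by quantiles, which removes shifts shared by most genes. Its summaries compress dim probe sets towards background. Precision is limited by having 3 arrays a group. The 15 arrays were pools, grouped by the treatment labels.

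Of 45101 probe sets, 64 controls were left out, and 34945 of the rest carried 1 gene symbol. Each of 18193 genes was read at its brightest probe set, by mean over 15 arrays. Of the 34 subunits, 19 had several probe sets. One limma fit (version 3.58.1, R 4.3.3) of the 5 groups took in every array, with eBayes left without an intensity trend. Its p-values are two-sided, were adjusted by Benjamini-Hochberg per comparison over all genes, and counted as called under 0.05. The fit had 10 residual and 4.69 prior degrees of freedom, and was tested on simulated data. No filter on dim genes was used.

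Pool values were printed for Psmb5, Psmb6 and Psmb7, for the 2 subunits per direction with the smallest p in each comparison with control, for the 2 with the largest and the 2 with the smallest F, and for the highest and lowest by mean. Related genes were named where called or first by p in their list, and Psmb8, Psmb9, Psmb10 and Psme1 always. Members and lists were chosen with earlier results of these data known. Alternatives covered the choice of probe set, a filter at a mean of 5, prior, array weights, covariates for Dbp and 3' minus 5' actin, rescaling of arrays, the groups fitted, and each pool left out in turn. Some genes of the related lists were not analysed here, nor were protein sequences of the subunits. Promoter windows came from RefSeq (GRCm38.p6).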

Additional observations from a re-analysis of the deposited data

How the results depend on the processing

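No subunit was called in any comparison under any of the alternatives, with 1 exception: ON F2 against ON F1 gave 1 call, Psmb2, with probe sets averaged per gene and with genes of a mean of at least 5. Each pool left out in turn gave 0 subunits called throughout. Against control, the subunits below 0 numbered 20 to 30 (IUGR F1), 25 to 31 (ON F1), 24 to 29 (IUGR F2) and 31 to 34 (ON F2) when pools were left out. Centring arrays on genes with a mean of at least 7 gave 16 in IUGR F1 in place of 24. That centring gave 17 in IUGR F2 in place of 28, and an IUGR F1 cap median of 0.0079. It also gave core medians of -0.00526 (IUGR F1), -0.071 (ON F1), 0.0078 (IUGR F2) and -0.036 (ON F2), with an ON F2 cap median of -0.071, and turned the core medians of pools 5 and 15 to 0.00037 and 0.00031 and the cap median of pool 8 to 0.0077. Centring on genes with a mean of at least 9, chosen after seeing the data because most subunits are that bright, gave core medians of -0.0062 in IUGR F1 and -0.064 in ON F2, and an ON F2 cap median of -0.099. Repeated quantile normalisation gave core medians of -0.067 in ON F1 and -0.073 in ON F2, and an ON F2 cap median of -0.079. Probe sets without a suffix gave an IUGR F1 core median of -0.000087. They turned Psma5 in IUGR F1 to 0.025, Psmc2 in IUGR F2 to -0.023 and Psmd13 in IUGR F2 to 0.12. The sets used there for Psma5 and Psmd13 were dimmer, with mean levels of 4.64 and 5.58 against 10.29 and 8.08. Averaging probe sets per gene gave an ON F2 cap median of -0.048 and turned Psmd9 in ON F1 to -0.067. The actin covariate gave an ON F1 core median of -0.064 and the Dbp covariate an ON F1 cap median of -0.13. With pools left out, core medians against control ran over -0.070 to -0.031 (IUGR F1), -0.14 to -0.076 (ON F1), -0.082 to -0.019 (IUGR F2) and -0.16 to -0.11 (ON F2), and cap medians over -0.082 to -0.012, -0.15 to -0.070, -0.084 to -0.023 and -0.19 to -0.098 in the same order. The genes called over the whole array ran over 0 to 21 (ON F1 against control), 3 to 365 (ON F2 against ON F1) and 7 to 53 (F test). The causes of these changes were not tested. No paired analysis was possible because the pool numbers 1 to 15 are each used once and no label ties a pool of 1 group to a pool of another. With 3 pools a group, subunit differences from control of up to -0.62 ± 0.17 (Psmb7 in ON F2, -0.48 without control pool 1) did not pass the threshold.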
